A study of Mus musculus with 20 samples.

Results

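Transcripts of the tumour necrosis factor (TNF) receptors and of the machinery that turns their signal into cell death were measured in small intestinal crypts of 20 mice. The genes are Tnfrsf1a, Tnfrsf1b, Tradd, Fadd, Casp8, Cflar, Ripk1, Ripk3, Mlkl and Zbp1, taken by symbol as the rows of these 10 genes among 23020 in the deposited values. All 10 had a row, and 9 passed the minimum mean used for testing, as did 9521 genes in all. Tnfrsf1b, with a mean of 3.15 on the log2 scale, lay under the minimum of 3.32. All mice were C57BL/6. The groups were 6 wild-type and 4 Xiap-/- mice housed by genotype, called housed apart here, and 5 wild-type and 5 Xiap-/- mice that shared cages for 4 weeks. Xiap encodes an inhibitor of caspases that is also a ubiquitin ligase. The labels give neither the age and sex of the mice, nor the cages, nor which part of Xiap was deleted. The comparisons ask whether the transcripts differ with genotype in each housing, with housing in each genotype, and whether the genotype difference depends on housing.

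The receptor TNFR1, encoded by Tnfrsf1a, binds TNF and gathers the adaptor TRADD and the kinase RIPK1 into a complex that drives survival and inflammatory signalling. When that complex is not held in check, RIPK1 joins FADD and caspase-8, which start apoptosis, while cFLIP, the product of Cflar, limits caspase-8. Where caspase-8 activity is low, RIPK1 or the nucleic acid sensor ZBP1 can engage RIPK3, which phosphorylates MLKL, and MLKL then breaches the plasma membrane in the form of death called necroptosis. In the gut, epithelial caspase-8 and FADD are known to protect Paneth cells and the crypt from this form of death. These are activities of proteins, whereas the values here are transcript levels.

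All levels are the authors' normalized values on a log2 scale, and all differences are differences of such levels. The counts per library are unknown, so no counting error can be given. Depth was followed by a proxy, the percentage of very rare genes found above their own baseline, which was 4.58% to 14.9% in wild-type mice housed apart, 9.55% to 32.1% in the Xiap-/- mice housed apart, and 4.69% to 12.4% in the co-housed mice. One label names liver as the source of RNA, and the others name crypts. The Paneth cell defensin Defa24 had a mean of 14.17 and all 5 epithelial markers passed the minimum mean (highest Epcam, 11.57), whereas 1 of 5 hepatocyte markers did (Ttr, 4.11). Among the other lists, 13 of 14 T cell markers passed (highest Gzma, 9.16), as did 6 of 10 myeloid markers (Cd74, 8.89), 3 of 7 B and plasma cell markers (Igha, 5.17) and 1 of 7 stromal and endothelial markers (Vim, 4.08). The Xiap transcript (chromosome X, 42059679 to 42109656) was 6.25 to 6.48 in Xiap-/- and 6.56 to 7.08 in wild-type mice housed apart, but 6.29 to 6.91 and 6.36 to 6.84 in the co-housed groups. Reads from the 3' end of the transcript can lie outside the deleted part, so these levels do not check the genotypes in either housing. The genotype difference of Xiap was -0.43 housed apart (limma, adjusted p = 0.0599) and -0.05 co-housed (adjusted p = 0.868). Why it was smaller in the co-housed mice was not tested.

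None of the 9 tested genes passed limma's adjusted p of 0.05 in any comparison. Means were lower in Xiap-/- mice for 7 of 9 genes housed apart (50.9% of all tested genes) and 6 of 9 co-housed (48.9%). Those of Ripk3, Mlkl, Zbp1, Cflar and Ripk1 were lower in both housings, with Ripk1 at -0.007 co-housed, and that of Tnfrsf1a was higher in both. The share of all genes lower in both was not counted. For genotype, 0 of 9 passed in mice housed apart, where 0.452% of all tested genes did, and 0 of 9 in co-housed mice, against 0.0315%. With both housings averaged, 0 of 9 passed, against 2.06%. For housing, 0 of 9 passed in wild-type mice (0% of all genes), in Xiap-/- mice (0.147%) and with both genotypes averaged (0.179%). For the interaction of genotype and housing, 0 of 9 passed, against 0.0105%. The levels of each tested gene overlapped between the groups of every pair, while 1.87% of all genes did not overlap between the genotypes housed apart, 3.09% between the co-housed genotypes, 0.525% between housings in wild-type mice and 5.63% in Xiap-/- mice.

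For genotype, an unadjusted limma p under 0.05 was reached by Ripk3, Mlkl and Zbp1, all with lower means in Xiap-/- mice. That was 3 of 9 in co-housed mice, where 12.0% of all genes were under this p and 6.59% with a lower mean in Xiap-/- mice. It was the same 3 of 9 with both housings averaged, a comparison that includes the co-housed mice, against 20.5% and 10.2%. In mice housed apart it was 0 of 9, against 15.8%. For housing it was 1 of 9, Ripk3, with a higher mean on co-housing in wild-type mice (10.2% of all genes, 5.30% higher) and with both genotypes averaged (14.4%, 6.44% higher), and 0 of 9 in Xiap-/- mice (11.3%). For the interaction it was 0 of 9, against 7.05%. The median genotype difference averaged over housings was -0.05 over the 9 genes, of which 7 were below 0, and 0.00 over all tested genes, of which 50.6% were below 0. RNA was taken from whole crypts, so fewer cells of a type and less RNA per cell cannot be told apart.

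**Figure D1:**
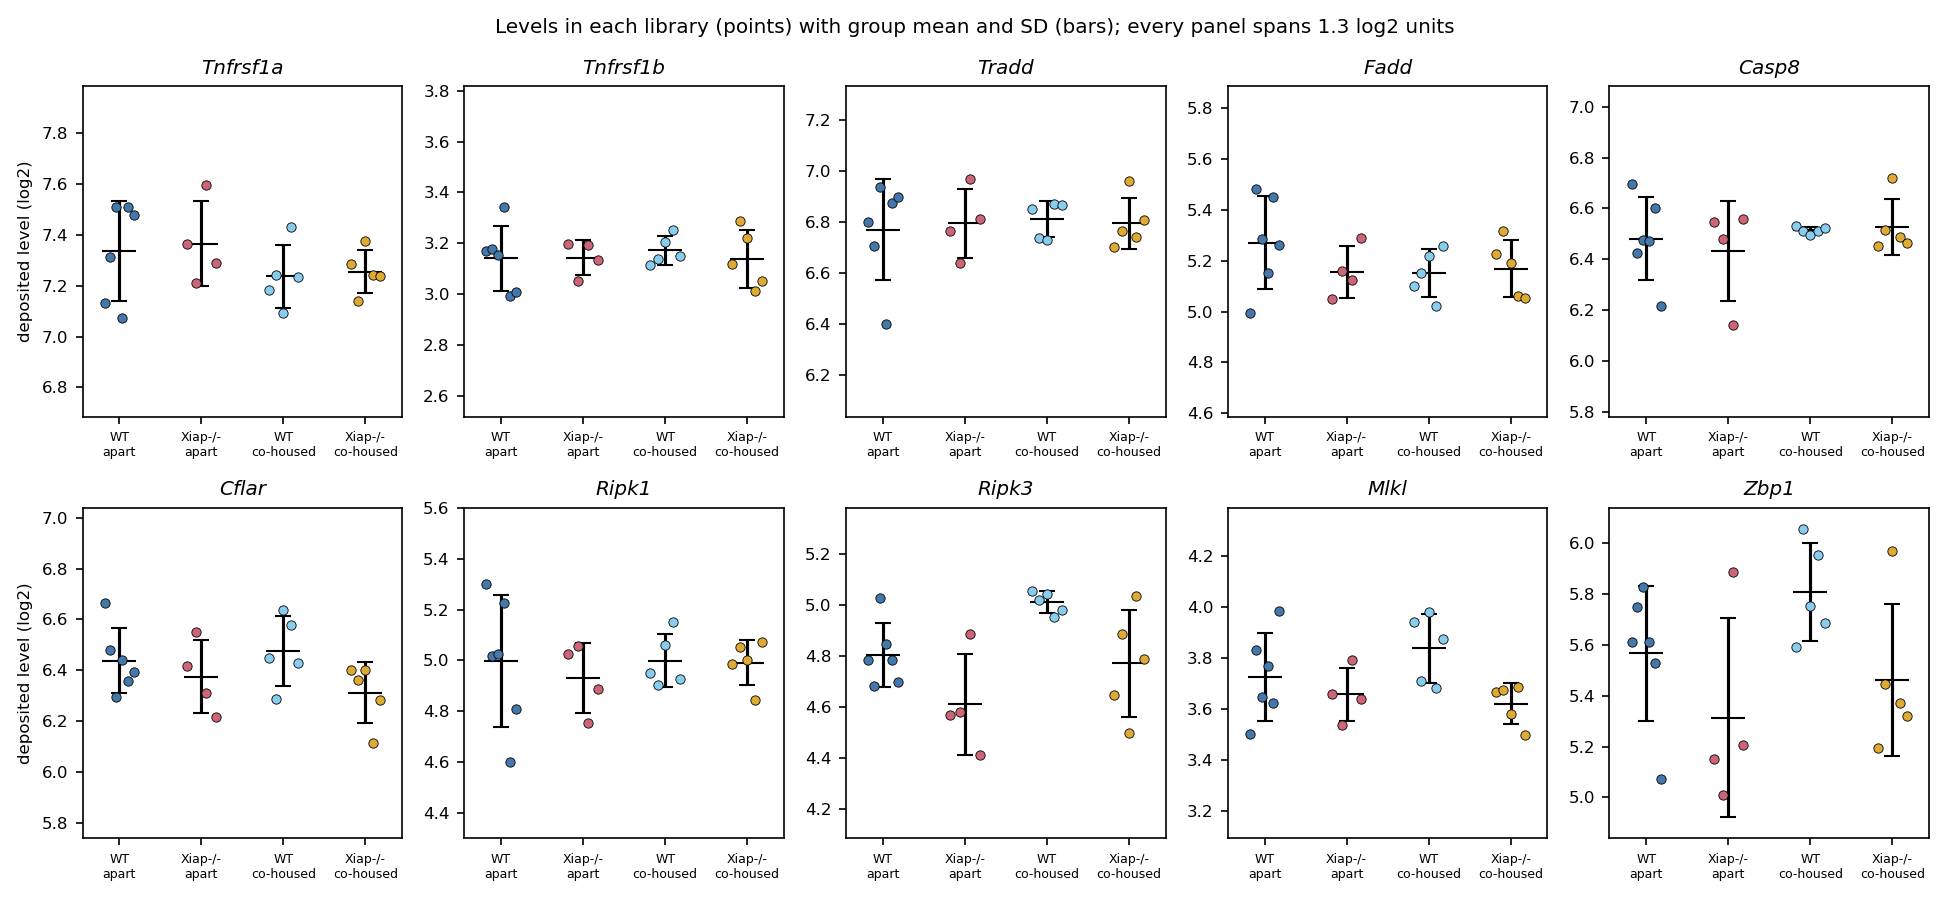
Deposited log2 level of each gene (vertical axis) in each library (points) of the 4 groups (horizontal axis), with the group mean and SD as bars. Every panel covers the same span, and Zbp1 shows the widest scatter, while the 5 co-housed wild-type libraries lie close together for Casp8 (6.50 to 6.53) and Ripk3 (4.95 to 5.06).

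The promoters of both receptors are shown here beside those of the kinase and the effector of necroptosis, Ripk3 and Mlkl, because 2 of these 4 carry a match to a cytokine response motif. The stretches are the 250 bases before the RefSeq transcript start on build GRCm38.p6, read along the strand of the gene. They lie at chr6:125349473-125349722 (plus strand) for Tnfrsf1a, chr4:145246871-145247120 (minus strand) for Tnfrsf1b, chr14:55788858-55789107 (minus strand) for Ripk3 and chr8:111338206-111338455 (minus strand) for Mlkl. Capitals mark matches, on either strand, to the core of the interferon-stimulated response element (GAAA, any 2 bases, GAAA), to the STAT motif (TTCNNNGAA) or to the NF-kB motif (GGGA, any base, TTTCC), which do not overlap one another in these windows.
Tnfrsf1a: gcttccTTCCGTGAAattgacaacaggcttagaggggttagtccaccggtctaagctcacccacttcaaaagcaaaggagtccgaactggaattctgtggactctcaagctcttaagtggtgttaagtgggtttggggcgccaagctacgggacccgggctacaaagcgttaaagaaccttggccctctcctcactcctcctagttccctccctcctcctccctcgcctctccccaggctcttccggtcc
Tnfrsf1b: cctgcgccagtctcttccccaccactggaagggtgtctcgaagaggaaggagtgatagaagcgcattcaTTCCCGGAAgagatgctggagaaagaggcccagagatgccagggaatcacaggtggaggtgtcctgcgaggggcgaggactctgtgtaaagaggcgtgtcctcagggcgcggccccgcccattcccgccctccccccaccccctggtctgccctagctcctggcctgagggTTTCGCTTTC
Ripk3: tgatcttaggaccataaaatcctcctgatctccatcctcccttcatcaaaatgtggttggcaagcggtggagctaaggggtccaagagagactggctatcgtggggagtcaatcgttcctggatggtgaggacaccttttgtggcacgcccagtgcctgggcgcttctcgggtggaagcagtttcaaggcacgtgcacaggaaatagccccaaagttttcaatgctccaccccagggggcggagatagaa
Mlkl: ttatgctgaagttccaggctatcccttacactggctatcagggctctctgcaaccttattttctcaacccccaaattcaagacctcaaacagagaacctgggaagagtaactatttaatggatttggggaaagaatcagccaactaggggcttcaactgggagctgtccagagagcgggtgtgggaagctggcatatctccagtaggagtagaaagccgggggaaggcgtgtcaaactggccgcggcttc
In Tnfrsf1a the match is to the STAT motif, 244 to 236 bases before the start. Tnfrsf1b holds a STAT match 181 to 173 bases before the start and an interferon-stimulated response element match in the last 10 bases before it. No letters of the 3 motifs occur in the windows of Ripk3 and Mlkl, nor in those of Fadd, Casp8 and Cflar. Ripk1 has windows at 2 starts, and the downstream one holds 2 STAT matches. Of all 32851 windows of this length, 2.98% hold the first motif, 7.02% the STAT motif and 0.356% the NF-kB motif. The windows covered 8 of the 10 genes, and a match describes the letters only.

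The TNF receptors and TRADD showed no difference with genotype or housing that passed the test. Tnfrsf1a (chromosome 6, 125349362 to 125362484) had levels of 7.07 to 7.51 (median 7.40) in wild-type mice housed apart. In Xiap-/- mice housed apart its levels were 7.36, 7.21, 7.60 and 7.29. Co-housed wild-type mice had 7.18, 7.24, 7.09, 7.43 and 7.24, and co-housed Xiap-/- mice 7.28, 7.14, 7.37, 7.24 and 7.24. The 4 groups overlapped throughout, with the single highest value in a Xiap-/- and the lowest in a wild-type mouse housed apart. Its genotype difference, Xiap-/- minus wild-type, averaged over housings was 0.02 ± 0.07 (SE), with a 95% interval from -0.12 to 0.16 (limma, adjusted p = 0.877). Co-housed minus apart, averaged over genotypes, was -0.10 ± 0.07 (interval -0.25 to 0.04, adjusted p = 0.496). Tnfrsf1b (chromosome 4, 145213463 to 145246870), which encodes TNFR2, the receptor without a death domain, ran from 2.99 to 3.34 over all 20 libraries. Its group means lay between 3.14 and 3.17, and the exact permutation p-values of its 4 group pairs were 0.886 and 0.563 for genotype apart and co-housed, and 0.628 and 0.937 for housing in wild-type and Xiap-/- mice.

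Tradd (chromosome 8, 105258286 to 105264609), the adaptor that binds the death domain of TNFR1, had group means from 6.77 to 6.81. A single wild-type library housed apart, replicate 4, stood lowest at 6.40, and the other 19 lay between 6.64 and 6.97. The genotype difference averaged over housings was 0.00 ± 0.07 (interval -0.13 to 0.14), and the housing difference averaged over genotypes was 0.02 ± 0.07 (interval -0.11 to 0.16).

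The caspase-8 arm was also close between groups, with the lowest mean of Cflar in co-housed Xiap-/- mice. Fadd (chromosome 7, 144577318 to 144582463), the adaptor that recruits caspase-8, ran from 4.99 to 5.48 in wild-type and from 5.05 to 5.29 in Xiap-/- mice housed apart. Its co-housed levels were 5.02 to 5.26 and 5.05 to 5.32. The antisense gene Faddos overlaps Fadd, and the strand used in counting is not given in the sources used here, so reads of the pair may not be separated. The genotype difference of Fadd averaged over housings was -0.05 ± 0.06 (interval -0.18 to 0.08). Casp8 (chromosome 1, 58795374 to 58847503) had levels of 6.53, 6.51, 6.50, 6.51 and 6.52 in co-housed wild-type mice and of 6.45, 6.52, 6.72, 6.49 and 6.46 in co-housed Xiap-/- mice. Housed apart, it ran from 6.22 to 6.70 in wild-type mice and from 6.14 to 6.56 in Xiap-/- mice. The averaged genotype difference of Casp8 was -0.02 ± 0.07 (interval -0.15 to 0.12) and its averaged housing difference 0.06 ± 0.07 (interval -0.07 to 0.20).

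Cflar lies next to Casp8 on chromosome 1 (58711508 to 58758884) and encodes cFLIP, a caspase-8 homologue without its own protease activity. Co-housed Xiap-/- mice had levels of 6.40, 6.36, 6.40, 6.11 and 6.28, and co-housed wild-type mice 6.45, 6.29, 6.64, 6.58 and 6.43. Of the 5 Xiap-/- values, 2 lay below the lowest wild-type value. The co-housed difference of -0.16 ± 0.09 (interval -0.35 to 0.02) did not pass (limma, adjusted p = 0.475; exact permutation p = 0.0873). Housed apart, the difference was -0.06 ± 0.09 (interval -0.25 to 0.12), and averaged over housings -0.11 ± 0.06 (adjusted p = 0.311).

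Neither kinase passed the test in any comparison. The means of Ripk1 lay within 0.07 of each other, and those of Ripk3 were lower in Xiap-/- mice in both housings. Ripk1 (chromosome 13, 34002363 to 34037147), which sits at the fork between survival, apoptosis and necroptosis, had means of 5.00 in wild-type against 4.93 in Xiap-/- mice when housed apart and of 5.00 against 4.99 when co-housed. Its spread was widest in wild-type mice housed apart, from 4.60 to 5.30. The averaged genotype difference was -0.04 ± 0.07 (interval -0.19 to 0.11) and the averaged housing difference 0.03 ± 0.07 (interval -0.12 to 0.18). On the same stretch, Ripk1 overlaps Serpinb6a, on the other strand, and a pair of processed pseudogenes.

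Ripk3 (chromosome 14, 55784995 to 55788865), the kinase that commits a cell to necroptosis, ran from 4.68 to 5.03 (median 4.79) in wild-type mice housed apart. The 4 Xiap-/- mice housed apart had 4.57, 4.58, 4.89 and 4.41. Co-housed wild-type mice had 5.06, 5.02, 5.04, 4.95 and 4.98, and co-housed Xiap-/- mice 4.65, 4.89, 4.50, 5.04 and 4.79. Housed apart, 3 of 4 Xiap-/- values lay below every wild-type value, and co-housed, 4 of 5 did. The exceptions were replicate 3 housed apart and replicate 4 co-housed. The genotype difference was -0.19 ± 0.10 (SE) housed apart (limma, adjusted p = 0.341; exact permutation p = 0.0857) and -0.24 ± 0.10 co-housed (adjusted p = 0.316; exact permutation p = 0.0317). Averaged over housings it was -0.22 ± 0.07, with a 95% interval from -0.36 to -0.08, and did not pass (limma, adjusted p = 0.0799). The genotype differences in the 2 housings differed by -0.05 ± 0.14 (adjusted p = 0.972). Without Xiap-/- replicate 4, the lowest library, the difference housed apart was -0.13 (limma, adjusted p = 0.674). Over the 20 fits that left out a library, the difference housed apart ran from -0.28 to -0.13 (limma, adjusted p from 0.217 to 0.674).

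Between housings, too, no difference of Ripk3 passed the test. All 5 co-housed wild-type values were above the mean of wild-type mice housed apart, and 2 were above all 6 of them. The difference, co-housed minus apart, was 0.21 ± 0.09 (limma, adjusted p = 0.466; exact permutation p = 0.0173) for wild-type mice and 0.16 ± 0.10 for Xiap-/- mice (adjusted p = 0.586; exact permutation p = 0.302). Averaged over genotypes it was 0.18 ± 0.07 (adjusted p = 0.217). Group means thus ran from 5.01 ± 0.04 (SD, n = 5) in co-housed wild-type mice through 4.80 ± 0.13 (n = 6) in wild-type mice housed apart and 4.77 ± 0.21 (n = 5) in co-housed Xiap-/- mice to 4.61 ± 0.20 (n = 4) in Xiap-/- mice housed apart. The neighbouring means in this order differ by less than the larger SD except for the first pair.

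Mlkl (chromosome 8, 111311797 to 111338177), whose product breaches the plasma membrane, differed most between the co-housed genotypes. Co-housed wild-type mice had 3.94, 3.71, 3.98, 3.68 and 3.87, and co-housed Xiap-/- mice 3.67, 3.68, 3.58, 3.69 and 3.50. All 5 Xiap-/- values were under the wild-type mean, and 4 of 5 were under the lowest wild-type value. Housed apart, wild-type mice ran from 3.50 to 3.99 (median 3.71), and the Xiap-/- levels of 3.66, 3.54, 3.79 and 3.64 all fell inside that range. The genotype difference was -0.22 ± 0.09 co-housed (limma, adjusted p = 0.315; exact permutation p = 0.0159) and -0.07 ± 0.09 housed apart (adjusted p = 0.758; exact permutation p = 0.524). The difference between the 2 housings, -0.15 ± 0.12, did not pass (adjusted p = 0.851), and the averaged difference was -0.14 ± 0.06 (adjusted p = 0.184). Mlkl was near the low end of the tested genes, with 7.11% of them at or under its mean of 3.71.

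Zbp1 (chromosome 2, 173206612 to 173218923), a sensor of unusual nucleic acids that is induced by interferon, varied most. Its SD over the 20 libraries, 0.32, was at the 97.6th percentile of the tested genes. Wild-type mice housed apart ran from 5.07 to 5.83 (median 5.61), and the 4 Xiap-/- mice had 5.15, 5.01, 5.89 and 5.21. Replicate 3 of the latter was above all 6 wild-type libraries, and the other 3 were under all wild-type values except the lowest, which replicate 2 alone undercut. Co-housed wild-type mice had 5.59, 6.06, 5.75, 5.95 and 5.68, and co-housed Xiap-/- mice 5.19, 5.45, 5.97, 5.37 and 5.32. There, 4 of 5 Xiap-/- values lay under the lowest wild-type value, and replicate 3 was again the exception. The genotype difference was -0.25 ± 0.16 housed apart (limma, adjusted p = 0.475; exact permutation p = 0.238), -0.35 ± 0.16 co-housed (adjusted p = 0.395; exact permutation p = 0.0714) and -0.30 ± 0.12 averaged (interval -0.54 to -0.06, adjusted p = 0.146). Housed apart it was -0.44 (limma, adjusted p = 0.184) without Xiap-/- replicate 3 and -0.15 (adjusted p = 0.748) without Xiap-/- replicate 2. Co-housed minus apart was 0.24 ± 0.15 for wild-type mice and 0.15 ± 0.17 for Xiap-/- mice, and neither passed (adjusted p = 0.602 and 0.802).

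**Figure D2:**
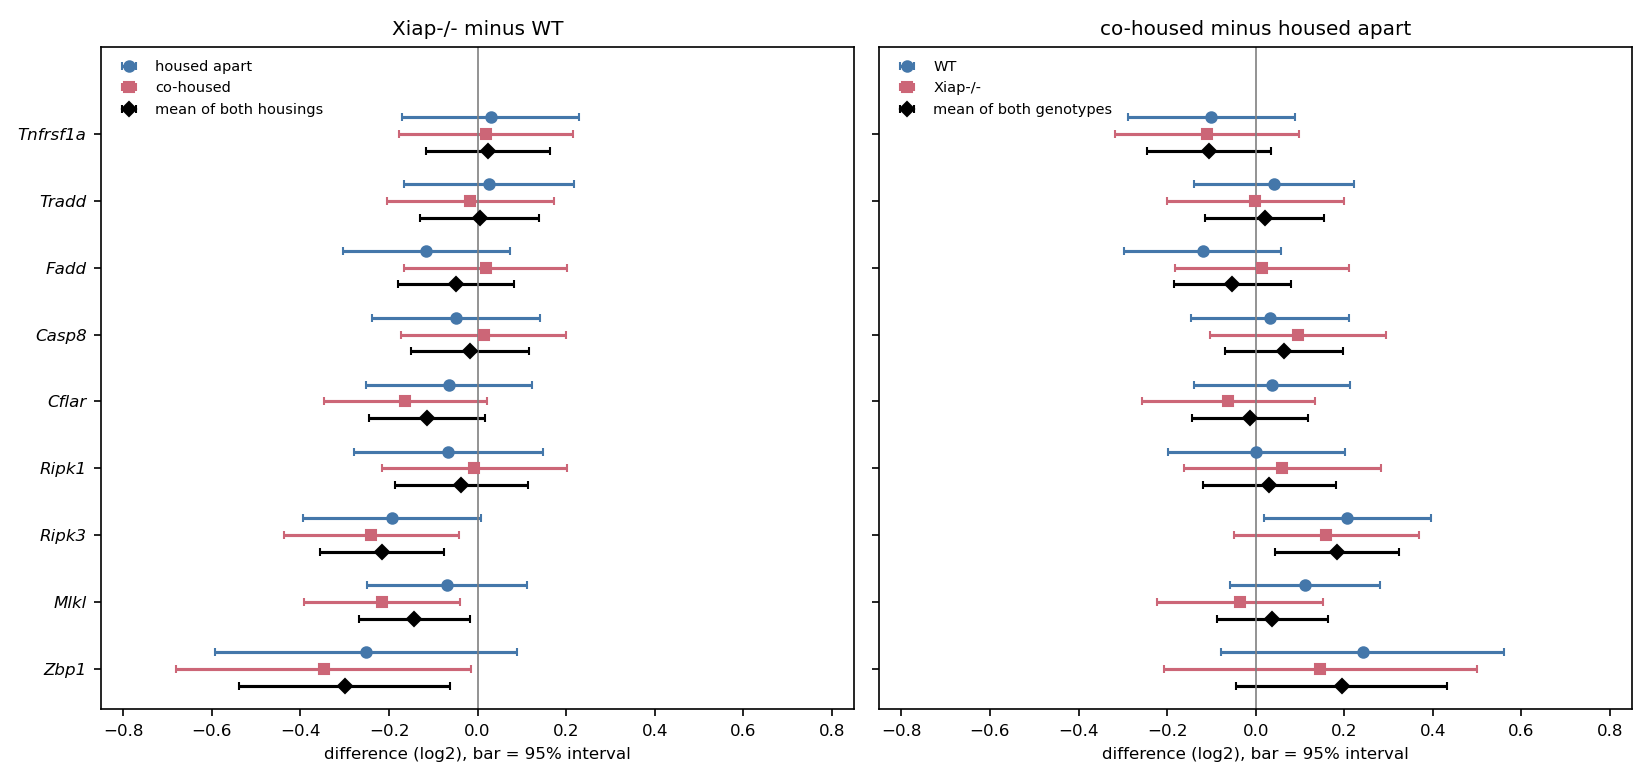
Differences in log2 level (horizontal axis) for the 9 tested genes (vertical axis), with 95% intervals from limma. The left panel shows Xiap-/- minus wild-type mice in each housing and their mean, and the right panel co-housed minus housed apart in each genotype and their mean. The averaged genotype intervals of Ripk3, Mlkl and Zbp1 lie below 0, and those of the other 6 genes include 0.

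In the averaged genotype comparison Ripk3 and Zbp1 each passed in 1 of the 20 fits that left out a library. Without replicate 5 of the wild-type mice housed apart, Ripk3 passed (-0.22, limma, adjusted p = 0.0453), and without replicate 3 of the Xiap-/- mice housed apart, Zbp1 passed (-0.40, adjusted p = 0.0448). These fits called 956 and 98 of the 9521 genes, against 196 with all libraries. With libraries weighted by how closely they follow their group over all genes, both passed (limma, adjusted p = 0.0156 and 0.0319). That fit called 791 of the 9521 genes. Xiap-/- replicates 1 to 4 housed apart had weights of 1.21, 2.03, 0.50 and 2.16, the lowest for replicate 3, the exception in that group for both genes. With the depth proxy as a covariate the averaged differences were -0.18 for Ripk3 (adjusted p = 0.345), -0.24 for Zbp1 (adjusted p = 0.441) and -0.08 for Mlkl (adjusted p = 0.607). Of the 9521 genes, 6 were called in the fit with that covariate. Over the 20 libraries the proxy had a Pearson r of -0.44 with Ripk3, -0.44 with Mlkl and -0.36 with Zbp1, and the part of depth in these differences was not tested beyond that covariate. By the exact permutation tests, which take each of 40 gene and group pair combinations alone and unadjusted, Ripk3 and Mlkl were under 0.05 between the co-housed genotypes, where 13.8% of all tested genes were. Between the housings of wild-type mice it was Ripk3 (6.97% of all tested genes), and no member was under 0.05 between the genotypes housed apart (9.39%) or the housings of Xiap-/- mice (12.8%).

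Among the members, Tnfrsf1a and Tradd varied together from mouse to mouse. Over the 20 libraries their Pearson r was 0.69 (permutation p = 0.000450, adjusted over 36 pairs 0.0162) and their Spearman rho 0.67 (permutation p = 0.00176, adjusted 0.0634). Without the 2 libraries farthest from the median of Tnfrsf1a, r was 0.60, and with the group means removed it was 0.78 (adjusted p = 0.0140). Of all pairs of tested genes, 1.09% had an r about as high or higher, with pairs of negative r not counted. No other pair passed on the levels as deposited. With group means removed, Ripk1 and Cflar (r = 0.64) and Casp8 and Mlkl (r = -0.65) passed too, both at an adjusted permutation p of 0.0438. On the deposited levels these pairs had an r of 0.58 and -0.49 (adjusted permutation p = 0.0884 and 0.204). Ripk1 and Tnfrsf1a ran opposite to each other, with an r of -0.60 that did not pass (adjusted permutation p = 0.0846). For Ripk3 and Zbp1, r was 0.50 (adjusted permutation p = 0.204), and 0.19 with the group means removed.

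**Figure D3:**
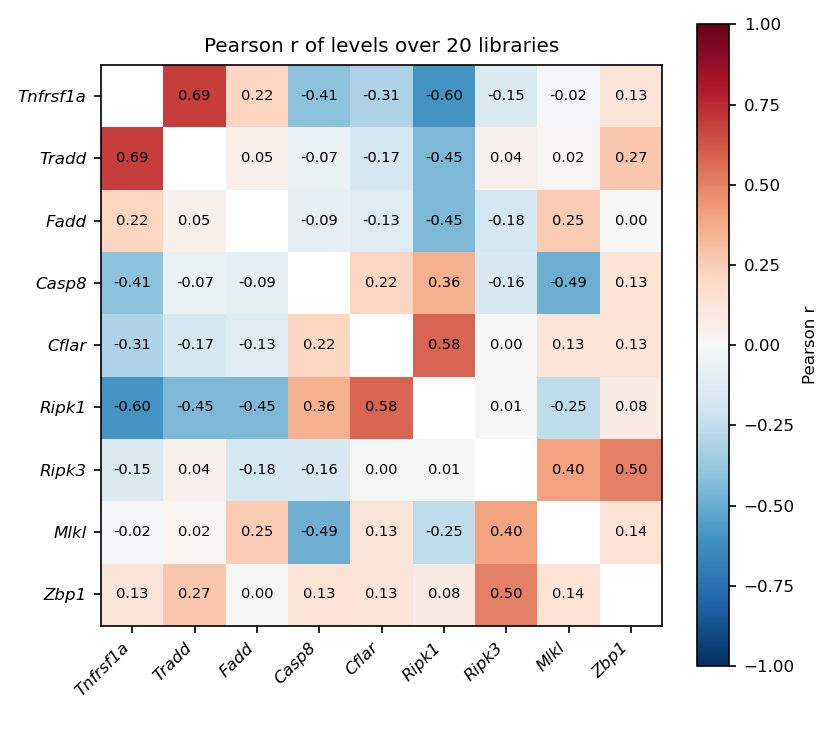
Pearson r between the levels of each pair of the 9 tested genes over the 20 libraries (red above 0, blue below 0). Tnfrsf1a and Tradd show the highest value, 0.69, and Tnfrsf1a and Ripk1 the lowest, -0.60.

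The mice with more Tnfrsf1a and Tradd were also those with more transcript of the goblet, absorptive and general epithelial lists. With the summed level of the goblet cell list, r was 0.82 for Tnfrsf1a (rho 0.76) and 0.63 for Tradd (rho 0.62). With the absorptive cell list it was 0.80 (rho 0.69) and 0.64 (rho 0.65), and with the general epithelial list 0.72 (rho 0.68) and 0.66 (rho 0.62). These 6 relations passed on Pearson r (adjusted permutation p from 0.00297 to 0.0393 over 99 relations), and on rank those of Tnfrsf1a did (adjusted permutation p of rho from 0.0178 to 0.0406). Without the 2 libraries farthest from the median, r was between 0.52 and 0.74. With the Paneth cell list r was -0.02 for Tnfrsf1a and -0.09 for Tradd, and neither passed (adjusted permutation p = 0.933 and 0.865). The summed goblet level ran from 13.54 to 14.10 in wild-type and from 13.55 to 14.26 in Xiap-/- mice housed apart, and from 13.51 to 13.91 and 13.52 to 13.96 in the co-housed groups, so it overlapped between all groups. Of the goblet list, 4 of 5 genes passed the minimum mean, and Muc2 did not. The part of cell makeup in the levels of either gene was not tested. The share of all tested genes that vary with these lists was not counted, so the relations may not be particular to Tnfrsf1a and Tradd.

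Zbp1 varied with the interferon response list, of which 10 of 16 genes passed the minimum mean (highest Irf1, 7.96). The Pearson r with the summed level was 0.63 (permutation p = 0.00286, adjusted 0.0404), rho was 0.53 (adjusted permutation p = 0.207), and r was 0.65 without the 2 farthest libraries and 0.75 with the group means removed. The summed interferon response was 9.32 to 9.92 in Xiap-/- and 9.55 to 9.73 in wild-type mice housed apart, and 9.50 to 9.80 and 9.43 to 9.90 in the co-housed groups. Replicate 3 of the Xiap-/- mice housed apart had both the highest Zbp1 of its group and the highest interferon level of all 20 libraries. That library was also the highest of the 20 for the T cell (11.22), goblet (14.26) and epithelial (13.13) lists, and not for the other lists. No relation of Ripk3, Mlkl, Casp8, Fadd, Cflar or Ripk1 with any of the 11 lists passed. How many of all tested genes vary with the interferon response list was not counted either.

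**Figure D4:**
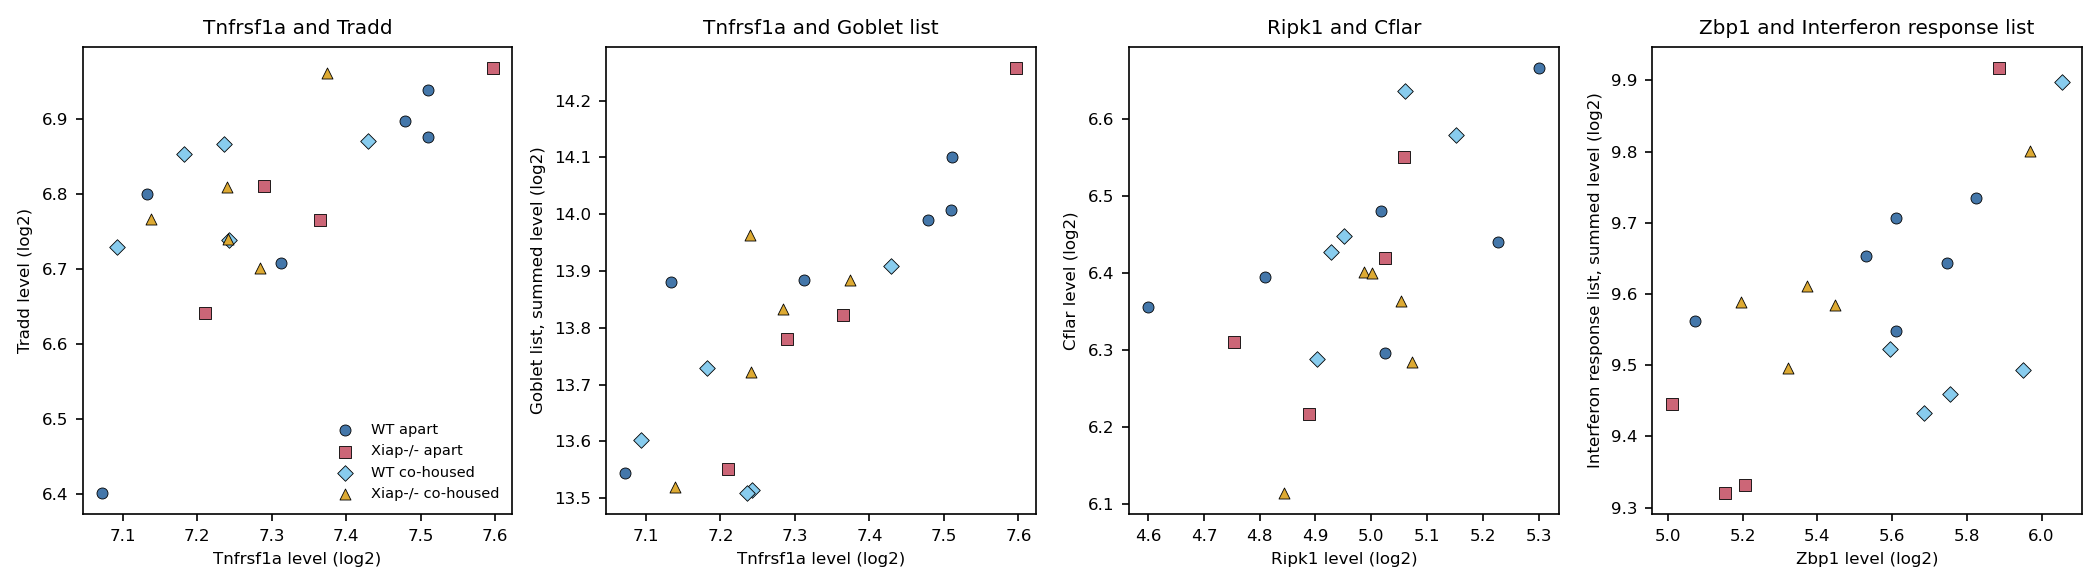
Levels in each of the 20 libraries (points, shaped and coloured by group) for Tnfrsf1a against Tradd, Tnfrsf1a against the summed goblet list, Ripk1 against Cflar, and Zbp1 against the summed interferon response list, all axes in log2. The points rise together in each panel, with r of 0.69, 0.82, 0.58 and 0.63.

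For each gene the tested genes with the most similar pattern over the 20 libraries are given as a description, ranked by Pearson r. Tnfrsf1a was closest to Tcn2, a carrier of vitamin B12, the peroxiredoxin Prdx5 and Atp6v0e, a subunit of the vacuolar proton pump (r = 0.90 for each). Tradd was closest to Mrpl43 (0.79), Tm4sf20 (0.78) and Ndufa5 (0.78), of which Mrpl43 and Ndufa5 encode mitochondrial proteins. The nearest to Fadd were Nt5m (0.72), Map3k9 (0.67) and Aspg (0.67), and to Casp8 they were Mrpl9 (0.72), Cep85 (0.71) and Ywhae (0.71). Cflar ran with Zfp507 (0.81), Rabgap1 (0.79) and Atxn7 (0.72), and Ripk1 with Rc3h1 (0.76), which encodes the mRNA decay factor roquin-1, Skiv2l (0.74) and Oxsr1 (0.69). Ripk3 was nearest to Ehd4 (0.82), Mfsd4a (0.74) and Vma21 (0.73), and Mlkl to Mbnl2 (0.83), Rcc1 (0.81) and Dusp8 (0.76). The nearest to Zbp1 were B3gnt7 (0.85), Sptlc2 (0.81), a subunit of the first enzyme of sphingolipid synthesis, and Pfkfb3 (0.79), a regulator of glycolysis. No interferon response gene was among the 3 nearest to Zbp1.

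Of the wider pathway, 48 of 58 listed genes were tested, and 2 passed. Tab2, an adaptor that links ubiquitin chains at the TNF receptor to the kinase TAK1, fell in Xiap-/- mice with both housings averaged, by 0.27 ± 0.07 on the log2 scale (limma, adjusted p = 0.0476). Housed apart, its mean was 6.94 ± 0.24 (SD, 6 wild-type mice) against 6.58 ± 0.17 (4 Xiap-/- mice), and co-housed it was 7.03 ± 0.05 against 6.85 ± 0.16 (5 mice each). Hsp90aa1, a chaperone of RIPK1 and RIPK3, rose on co-housing with both genotypes averaged, by 0.38 ± 0.08 (adjusted p = 0.0331). It went from 6.98 ± 0.29 to 7.26 ± 0.13 in wild-type mice and from 6.99 ± 0.10 to 7.47 ± 0.19 in Xiap-/- mice. That was 1 of 48, or 2.08%, in each of these comparisons, against 2.06% and 0.179% of all tested genes, and 0 of 48 in the other 5. At an unadjusted limma p under 0.05 the list held 10 of 48 for genotype housed apart (20.8%, against 15.8% of all tested genes), 4 for genotype co-housed (8.33% against 12.0%) and 13 for genotype averaged (27.1% against 20.5%). For housing it held 6 in wild-type mice (12.5% against 10.2%), 7 in Xiap-/- mice (14.6% against 11.3%) and 5 averaged (10.4% against 14.4%), and for the interaction 3 (6.25% against 7.05%). The call of Tab2 held in 4 of the 20 fits that left out a library (wild-type replicates 3 and 5 and Xiap-/- replicate 1 housed apart, and co-housed Xiap-/- replicate 2), with an adjusted p from 0.00824 to 0.106. The call of Hsp90aa1 held in 9 of the 20 (wild-type replicates 2 to 6 and Xiap-/- replicate 2 housed apart, and co-housed wild-type replicate 1 and Xiap-/- replicates 3 and 5), with an adjusted p from 0.00776 to 0.125. With the depth proxy as a covariate neither passed (adjusted p = 0.260 and 0.164). Tab2 also lost its call with no filter, median centring, quantile normalization or no trend, that is, in 5 of 8 alternative settings with the depth covariate counted.

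The sub-lists of the pathway are given by how many genes had lower means in Xiap-/- mice with both housings averaged, beside 50.6% of all tested genes. In the list of kinases downstream of TNFR1 and their adaptors it was 10 of 12 (median difference -0.12), among them Tab2. The other most abundant gene of that list, Azi2, which does not encode a kinase either, had -0.01 ± 0.06. In the ubiquitin machinery of the receptor complex it was 10 of 13 (median -0.07), with Optn at 0.00 ± 0.08, Rbck1, a subunit of the linear ubiquitin ligase, at -0.15 ± 0.06, and Xiap itself, counted in this list, at -0.24 ± 0.08. Of the other partners of RIPK1, RIPK3 or ZBP1 it was 7 of 12 (median -0.02), with the ubiquitin ligases Stub1 at -0.14 ± 0.07 and Peli1 at 0.05 ± 0.06. Of the caspases and their substrates it was 1 of 8 (median 0.07), with Casp6 at 0.27 ± 0.08 (adjusted p = 0.0623). The death receptor gene Fas and Tnfsf10, which encodes the ligand TRAIL, the 2 tested genes of their list, had differences of 0.21 ± 0.08 and 0.08 ± 0.06. None of these passed except Tab2. Of the ligands and shedding genes, the TNF-releasing protease Adam17 was tested (-0.13 ± 0.06). Tnf itself, with group means from 0.80 to 0.85, was under the minimum mean.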

How the data were processed

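RNA of 20 libraries was sequenced from the 3' ends of polyadenylated transcripts with molecular identifiers, per the labels' protocols. The authors deposited normalized values on a log2 scale (-3.88 to 16.30). DESeq2 1.18.1 and build GRCm38.p6 are named, per the submitters' processing notes; the transformation, aligner and counter are not given in the sources used here. The values were used as deposited, in R 4.3.3 with limma 3.58.1: genes with a mean of at least log2 of 10 (9521) were fitted with 4 group means (16 residual degrees of freedom), trend and robust moderation, two-sided, with Benjamini-Hochberg adjustment over all of them and a threshold of 0.05. The model was tested on simulated data. Exact permutation tests (two-sided, unadjusted) and correlations (100000 resamples) used SciPy 1.17.1. The smallest p of the exact tests was 0.00952 for genotype housed apart, 0.00794 co-housed, and 0.00433 and 0.0159 for housing in wild-type and Xiap-/- mice.

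The members, gene lists and tests were chosen with earlier results of these data known, and the relations with marker lists were added after seeing the data. Genes named are the members, Xiap, Tnf, pathway genes that passed, the 2 highest means of each sub-list, the 3 nearest genes of each member and the highest gene of each marker list. Some are not used here, and genes named outside this rule were chosen after their values were seen. Mice were treated as independent, so p-values measure the spread between them. No cage is named, so effects of cage cannot be told apart from housing, nor from genotype in the mice housed apart. Positions are from GENCODE M21 on GRCm38. Alternatives covered filters, scaling, the variance model, library weights, a depth covariate, a replicate block, the groups fitted and leaving out each library.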

Additional observations from a re-analysis of the deposited data

Results flagged for a closer look

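In co-housed Xiap-/- mice, replicate 3 had a Casp8 level of 6.72, apart from the other 4, which lay between 6.45 and 6.52. Its gap to the nearest of them was 0.76 of the range of the group, where the 95% critical value for 5 samples is 0.71. This was 1 of 40 sets of a gene and a group examined, and chance gives such a gap in about 1 in 20.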

How the results depend on the processing

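Among 1779 values of the members' differences under 29 alternative settings (63 results), 87 changed sign, in 30 results whose main difference was smaller than its standard error; 5 came to pass the threshold. For the genotype difference averaged over housings, 0 members passed as reported, 2 with library weights (Ripk3, Zbp1), 1 with the replicate block (Zbp1, -0.37, adjusted p = 0.00970), and 0 to 1 without single libraries. Over all 9521 genes, the calls in that comparison were 196 as reported, 791 with library weights and 582 with the replicate block, and for genotype housed apart 43, 385 and 350. With the depth covariate the calls fell to 6 with both housings averaged and to 3 housed apart. Of the pathway list in the same comparison, 1 gene passed as reported, 0 with no filter, median centring, no trend or the depth covariate, 1 with quantile normalization (Casp6, not Tab2), 6 with library weights, 4 with the replicate block and 0 to 7 without single libraries. For genotype housed apart, 0 pathway genes passed as reported, 2 with library weights, 4 with the replicate block and 0 to 5 without single libraries. For housing in Xiap-/- mice it was 0 as reported, 1 with library weights, with the replicate block or with only the groups compared, and 0 to 1 without single libraries. For housing averaged over genotypes it was 1 as reported, 0 with the depth covariate and 0 to 2 without single libraries. Members with an exact permutation p under 0.05 were 2 between the co-housed genotypes (1 with medians, 1 to 3 without single libraries), 1 between the housings of wild-type mice (0 with medians, 1 to 2), 0 between the genotypes housed apart (0 to 1) and 0 between the housings of Xiap-/- mice (0 to 0). Member pairs that passed were 1 as reported and 3 with group means removed. The causes were not tested. With the stricter minimum mean of 5, Ripk1, Ripk3 and Mlkl were not tested.

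Replicate numbers are shared between the groups. Of 27 pairs of samples with the same number, 10 had a correlation above 0.1 (range -0.42 to 0.36), and 9 correlated best with their own number. How many would do so by chance was not tested, so whether samples with the same number share anything is not settled. No cage is named for the numbers, so the replicate block describes numbers only. The depth of each library is unknown.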
